A study of Homo sapiens with 6 samples.

Results

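The peroxiredoxins, thioredoxin reductase, the superoxide dismutases and catalase, the enzymes that remove superoxide and hydrogen peroxide from human cells, were examined in SH-SY5Y neuroblastoma cells exposed to bilirubin for 1 h. The list named 10 genes: PRDX1, PRDX2, PRDX3, PRDX4, PRDX5, PRDX6, TXNRD1, SOD1, SOD2 and CAT. Members were all probe sets whose annotation gave exactly 1 gene symbol and that symbol was on the list, a rule that uses no measured value. This gave 15 probe sets of 8 genes among 22215 probe sets (22277 in the table, less 62 platform controls). PRDX5 was on no probe set of the annotation used here. SOD2, the manganese superoxide dismutase of mitochondria, was named only on 4 probe sets that carry a further symbol, so neither gene has a value below. Thioredoxin itself, TXN, is not on the list and is described with the genes around it.

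The samples were 6 cultures of SH-SY5Y, an established human neuroblastoma line, each hybridised to 1 Affymetrix GeneChip U133A 2.0 array, a set of short oligonucleotide probes grouped into probe sets. In 3 cultures the medium held unconjugated bilirubin at a free concentration (Bf) of 140 nM. In the other 3 it held the solvent alone, dimethyl sulfoxide (DMSO) at 0.6%, and in both groups the cells were collected after 1 h. The cultures are described as independent biological replicates from separate flasks, and carry the numbers 1 to 3 in each group. The comparison asks whether bilirubin at this free concentration changes message levels within 1 h. It covers 1 line and no enzyme activity. Per the study's methods the same mass of RNA was labelled for each array, so cell number and total RNA per cell are not seen. The RNA came from whole cultures, so fewer cells holding a message and less of that message per cell cannot be told apart.

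Superoxide dismutases turn superoxide into hydrogen peroxide, SOD1 in the cytosol and SOD2 in the mitochondrial matrix. Catalase, in peroxisomes, breaks hydrogen peroxide down without a reducing partner, whereas peroxiredoxins reduce it with a reactive cysteine that is regenerated mostly by thioredoxin, which thioredoxin reductase in turn recharges with electrons from NADPH. TXNRD1 and PRDX1 are textbook targets of NRF2, the product of NFE2L2, a factor that binds antioxidant response elements when its repressor KEAP1 is modified.

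Promoter sequence is shown for TXNRD1 and CAT. Of the members with a promoter window, only TXNRD1 held the antioxidant response element core, and CAT held the most CCAAT boxes. RefSeq promoter windows (GRCh38.p14) existed for 7 of the 10 listed genes, in 12 windows. The 250 bases before each start were searched on both strands. PRDX1, PRDX6 and SOD1 had no window and were not searched. The core of the antioxidant response element, TGACNNNGC, was found in 10.9% of all 35116 promoters. Among the members with a window it was found only in TXNRD1, in both of its 2 windows, 99 bases before one start (forward strand) and 102 bases before the other (reverse strand). The stretches below are read 5′ to 3′ on the plus strand of chromosome 12, at chr12:104215655-104215713 and chr12:104286905-104286963, with the match in capitals.
TXNRD1 first start: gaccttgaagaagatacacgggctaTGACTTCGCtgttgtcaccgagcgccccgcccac
TXNRD1 second start: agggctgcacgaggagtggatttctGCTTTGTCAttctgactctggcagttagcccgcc

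The CCAAT box, CCAAT, was found in 32% of all promoters. CAT held 5 of them in its 1 window, and the stretch at chr11:34438712-34438908 (plus strand, 5′ to 3′) carries all 5 in capitals, reverse-strand matches appearing as ATTGG.
CAT start: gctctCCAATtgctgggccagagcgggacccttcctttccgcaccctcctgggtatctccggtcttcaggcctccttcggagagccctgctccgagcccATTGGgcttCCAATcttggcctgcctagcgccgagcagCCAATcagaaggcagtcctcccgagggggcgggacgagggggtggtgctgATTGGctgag
Further CCAAT boxes lay in both TXNRD1 windows and in 2 of the 4 windows of SOD2. The FOXO core, TGTTTAC, was in 2.98% of promoters and in none of the members' windows. A match of letters is a description only, and the arrays do not measure binding.

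Before the members are compared, the arrays need a word. The 3′ minus 5′ difference of the actin control probe sets, which grows as RNA or labelled product becomes shorter, was 1.49 log2 on the Bf array and 1.90 on the DMSO array of replicate 3, against 0.10 to 0.50 on the other 4 arrays. For GAPDH it was 1.03 and 1.15 against 0.20 to 0.25. On replicate 3 the array median was 7.78 (Bf) and 7.73 (DMSO), and on the others 7.94 to 7.97. Of the 14 measured noradrenergic neuroblastoma markers, 12 lay above the 80th percentile of probe sets, among them DBH, GATA3 and STMN2; HAND2 (percentile 49.5) and TH (percentile 14.2) did not. All 5 erythroid and all 7 immune markers measured lay below the median. Of 13 mesenchymal markers, 4 lay above the 80th percentile: VIM, TWIST1, COL3A1 and FN1.

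In the solvent cultures, most of these enzymes lay among the brightest probe sets of the array. Taking the brightest probe set of each gene, the 8 measured genes had mean percentiles from 82.1 to 98.5 over the 3 DMSO arrays, and the median over all 15 probe sets was 94.0. A percentile ranks the brightness of a probe set, which depends on its probes as well as on the transcript, so the order is one of probe sets and not of transcript numbers. SOD1 was at percentile 98.5 ± 0.19 (SD, n = 3), PRDX2 (39729_at) at 98.3 ± 0.36, PRDX1 at 98.1 ± 0.64 and PRDX6 (200844_s_at) at 98.0 ± 0.43. Neighbours among these 4 lay within their SD of each other. PRDX4 followed at 95.9 ± 0.90, TXNRD1 at 94.96 ± 0.71 and PRDX3 (201619_at) at 94.7 ± 0.46, and the ranges of neighbours among these 3 overlapped over the DMSO arrays. CAT (201432_at) was lowest, at 82.1 ± 1.22, and its DMSO arrays (81.0 to 83.4) did not reach those of any other gene's brightest probe set.

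By compartment, the 5 enzymes of the cytosol (PRDX1, PRDX2, PRDX6, TXNRD1 and SOD1) ran from 94.96 to 98.46. The peroxiredoxin of the endoplasmic reticulum, PRDX4, was at 95.9 and that of the mitochondrion, PRDX3, at 94.7. The peroxisomal enzyme, catalase, was at 82.1. Apart from the cytosol, each compartment is represented by 1 gene, so these are values of single genes and no test between compartments was made.

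**Figure D1:**
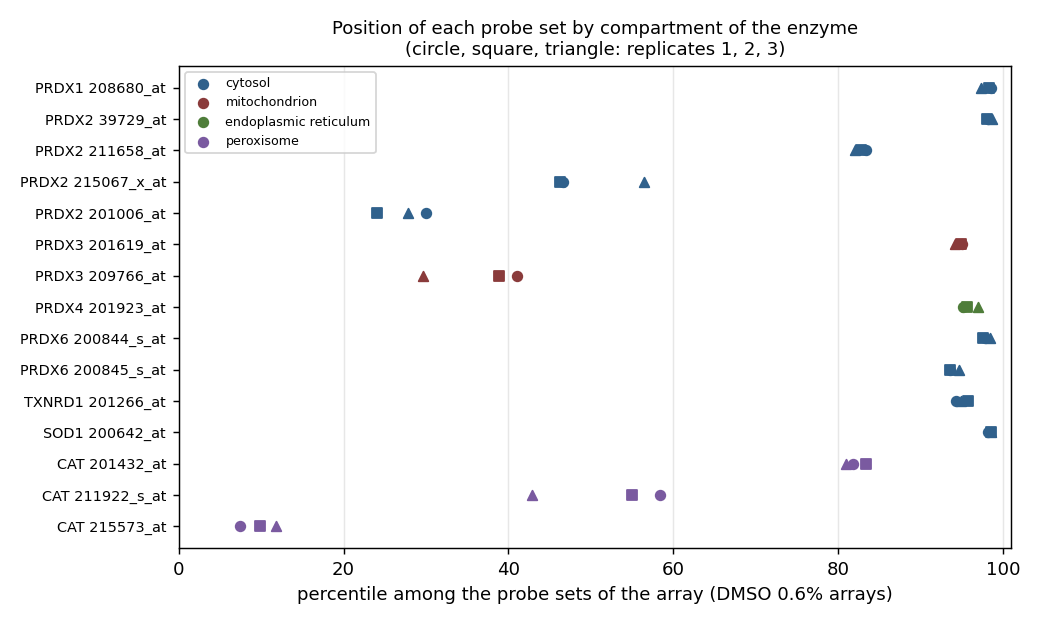
Percentile of each of the 15 probe sets (rows) among all probe sets of the same array (x axis, 0 to 100) on the 3 DMSO 0.6% arrays, coloured by the compartment of the enzyme, with circle, square and triangle for replicates 1, 2 and 3. The brightest probe sets of 7 genes sit above percentile 94 and that of CAT between 81.0 and 83.4, while further probe sets of PRDX2, PRDX3 and CAT reach far lower.

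Probe sets for 1 gene differed widely in level. The 4 for PRDX2 spanned 6.08 log2 (percentiles 27.3 to 98.3), the 2 for PRDX3 4.46 (36.6 and 94.7), the 3 for CAT 3.71 (9.73 to 82.1) and the 2 for PRDX6 1.27 (94.0 and 98.0). The treatment differences were all small, and the probe sets of a gene lay within 0.10 for PRDX2, 0.04 for PRDX3, 0.05 for PRDX6 and 0.11 for CAT. Their signs did not always agree. All probe sets of the gene shared a sign in 0 of the 3 replicate numbers for PRDX2, 1 for PRDX3 and 2 each for PRDX6 and CAT.

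After 1 h at 140 nM Bf, none of the 15 probe sets passed the test in either direction (limma, Benjamini-Hochberg adjusted p under 0.10 over all probe sets). Of all 22215 probe sets 0 passed, a background of 0%. At an unadjusted p under 0.05 the members gave 0 and all probe sets 22 (0.099%). With the replicate number as a block, again 0 members and 0 of all passed, and at an unadjusted p under 0.05 the counts were 0 and 270 (1.22%). Both shares of all probe sets lay below the 0.05 level itself, so 0 among the 15 members does not show that nothing changed. The differences, Bf minus DMSO, ran from -0.04 (CAT 201432_at) to 0.13 (PRDX2 215067_x_at) on the log2 scale. Their median was 0.03, against 0.01 over all probe sets, and leaving out single arrays moved it between -0.0281 (without DMSO replicate 1) and 0.0805 (without Bf replicate 2). Without Bf replicates 1 and 3 in turn it was 0.0028 and 0.0030, without DMSO replicate 2 it was 0.0090 and without DMSO replicate 3 it was 0.0729. With equal array medians it was 0.0096, against -0.0052 over all probe sets. The median size of the differences was 0.04, against 0.05. Of the 15 differences, 12 were above 0 and 3 below, and over all probe sets 58.4% were above 0. This split depended on scaling: 10 were above 0 under quantile normalization and 10 with equal array medians. The medians over all probe sets were then -2.5e-05 and -0.0052, and the share of all above 0 was not counted. The 15 probe sets also stand for only 8 genes.

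In no member did the 3 arrays of one group lie wholly above those of the other. The share with Bf wholly higher was 2.06% of all probe sets and with Bf wholly lower 0.59%. A sign shared by all 3 replicate numbers was seen in 2 members, PRDX2 215067_x_at and PRDX3 201619_at, both positive (11.8% of all probe sets), and no member was negative in all 3 (5.83% of all). Scaling moved these counts: under quantile normalization 4 members were positive and 1 negative in all 3 (9.7% and 9.44% of all probe sets), and with equal array medians 1 and 0 (8.75% and 8.64% of all). Within replicate 1 the median difference of the members was 0.12 (all probe sets 0.02), within replicate 2 it was -0.02 (all -0.0038) and within replicate 3 -0.0011 (all 0.03). The exact permutation test of 3 arrays against 3 cannot give a p below 0.10, and for the members it gave 0.50 to 1.00.

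**Figure D2:**
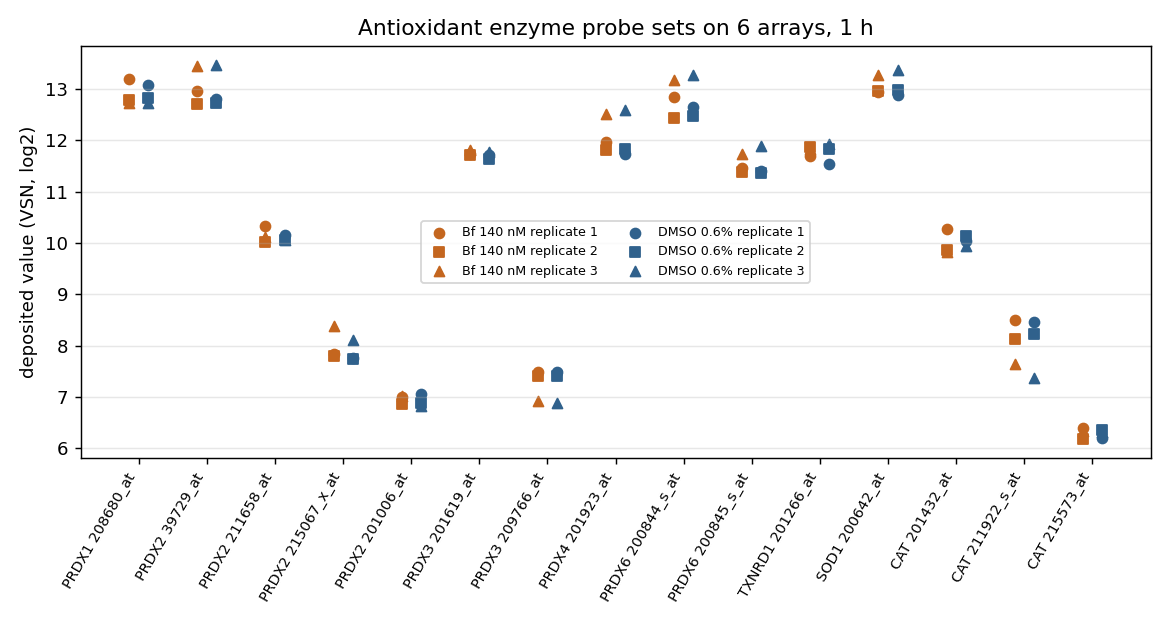
Deposited log2 values (y axis) of the 15 probe sets (x axis) on each of the 6 arrays, orange for Bf 140 nM and blue for DMSO 0.6%, with circle, square and triangle for replicates 1, 2 and 3. In each probe set the orange and blue points overlap, and the triangles of PRDX4, PRDX6, SOD1 and 2 probe sets of PRDX2 lie above the other points while those of CAT 211922_s_at and PRDX3 209766_at lie below.

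Among the cytosolic peroxiredoxins, PRDX1, an abundant peroxidase that also acts as a chaperone, read 13.19, 12.78 and 12.72 on the Bf arrays and 13.07, 12.82 and 12.72 on the DMSO arrays of replicates 1 to 3. Its level was higher in replicate 1 of both groups, and the groups overlapped. The difference was 0.03 (95% interval -0.36 to 0.42), with 0.12, -0.04 and -0.0011 in the 3 replicate numbers.

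PRDX2, a peroxidase best known from red cells and neurons, read 12.97, 12.71 and 13.45 (Bf) and 12.80, 12.73 and 13.47 (DMSO) on its brightest probe set, 39729_at. Both arrays of replicate 3 stood above the other 4. The difference was 0.04 (-0.60 to 0.68). On 211658_at the values were 10.33, 10.02 and 10.11 against 10.16, 10.07 and 10.05, a difference of 0.06 (-0.20 to 0.32). The highest Bf value exceeded all DMSO values there while the lowest Bf value fell below them. On 215067_x_at, which gave the widest difference among the members, the Bf arrays read 7.84, 7.80 and 8.38 and the DMSO arrays 7.76, 7.74 and 8.11. Each Bf array exceeded its DMSO partner, by 0.08, 0.06 and 0.27, but replicate 3 of DMSO lay above replicates 1 and 2 of Bf, and the difference was 0.13 (-0.33 to 0.60; adjusted p = 1.00, limma). The dimmest, 201006_at, gave 0.04 (-0.21 to 0.28), with replicate 3 alone positive (0.20).

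PRDX6, the 1-cysteine peroxiredoxin, which also has phospholipase activity, read 12.85, 12.43 and 13.18 (Bf) and 12.65, 12.47 and 13.28 (DMSO) on 200844_s_at. Replicate 3 was highest in both groups. The difference was 0.02 (-0.64 to 0.68), and on its second probe set, 200845_s_at, it was -0.03 (-0.46 to 0.40).

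In the mitochondrion, PRDX3, whose electrons come from the mitochondrial thioredoxin TXN2, had the narrowest range of any gene's brightest probe set. Its brightest probe set, 201619_at, read 11.73, 11.71 and 11.81 on the Bf arrays and 11.72, 11.64 and 11.77 on the DMSO arrays, a range of 0.17 over the 6 arrays. Bf exceeded DMSO by 0.01, 0.07 and 0.04 in the 3 replicate numbers, yet the groups overlapped, and the difference was 0.04 (-0.16 to 0.24). Its second probe set, 209766_at, read 7.50, 7.42 and 6.92 against 7.50, 7.42 and 6.89, a difference of 0.01 (-0.53 to 0.55), with replicate 3 low in both groups.

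PRDX4, the peroxiredoxin of the endoplasmic reticulum, uses peroxide to drive disulfide formation in folding proteins. It read 11.98, 11.81 and 12.52 (Bf) and 11.74, 11.83 and 12.59 (DMSO). Replicate 3 stood above replicates 1 and 2 in both groups by more than any difference between treatments. The difference was 0.05 (-0.64 to 0.74), with 0.23, -0.01 and -0.07 in the 3 replicate numbers.

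TXNRD1, the cytosolic selenoprotein that recharges thioredoxin and whose promoter stretches are printed above, read 11.70, 11.87 and 11.83 on the Bf arrays and 11.54, 11.84 and 11.93 on the DMSO arrays. The lowest value was that of DMSO replicate 1 and the highest that of DMSO replicate 3, so that all Bf values lay inside the DMSO range. The difference was 0.03 (-0.28 to 0.33), which as a fold is 1.02 (0.83 to 1.26).

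SOD1, the copper and zinc enzyme, read 12.94, 12.97 and 13.28 (Bf) against 12.88, 12.98 and 13.36 (DMSO). Replicate 3 was highest in both groups, and the difference was -0.01 (-0.41 to 0.38). CAT read 10.28, 9.87 and 9.82 against 10.03, 10.13 and 9.94 on its brightest probe set, 201432_at. This was the widest disagreement between replicate numbers for the brightest probe set of any member: Bf was above DMSO by 0.25 in replicate 1 and below it by 0.26 and 0.12 in replicates 2 and 3. The difference was -0.04 (-0.39 to 0.31).

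The other CAT probe sets gave 0.07 (-0.75 to 0.89) for 211922_s_at and 0.02 (-0.22 to 0.25) for 215573_at. At 6.18 to 6.40 on all arrays, 215573_at lay at percentile 9.73 in the DMSO cultures. On 211922_s_at the arrays read 8.50, 8.12 and 7.64 (Bf) and 8.45, 8.24 and 7.37 (DMSO), so that here replicate 3 was lowest in both groups.

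The intervals give the range of differences that the values of each single probe set leave possible. They are not adjusted for the 22215 probe sets tested, so they are not limits of detection at the threshold used. For 10 of the 15 probe sets the 95% interval lay inside a 1.5-fold change in either direction. With the replicate number as a block this held for 15 of 15. Of all 22215 probe sets it held for 17669 without the block and 22194 with it, so these counts mark no trait of the members. The median distance from a difference to the end of its interval was 0.40 log2 without the block and 0.19 with it. Over all probe sets these distances were 0.31 and 0.19. In the blocked fit the intervals were -0.15 to 0.21 for PRDX1, -0.15 to 0.23 for PRDX2 (39729_at), -0.14 to 0.25 for PRDX4, -0.19 to 0.17 for SOD1 and -0.26 to 0.18 for CAT (201432_at). By compartment the differences of the brightest probe sets ran from -0.01 to 0.04 in the cytosol and were 0.04 in the mitochondrion, 0.05 in the endoplasmic reticulum and -0.04 in the peroxisome, all small beside these intervals.

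**Figure D3:**
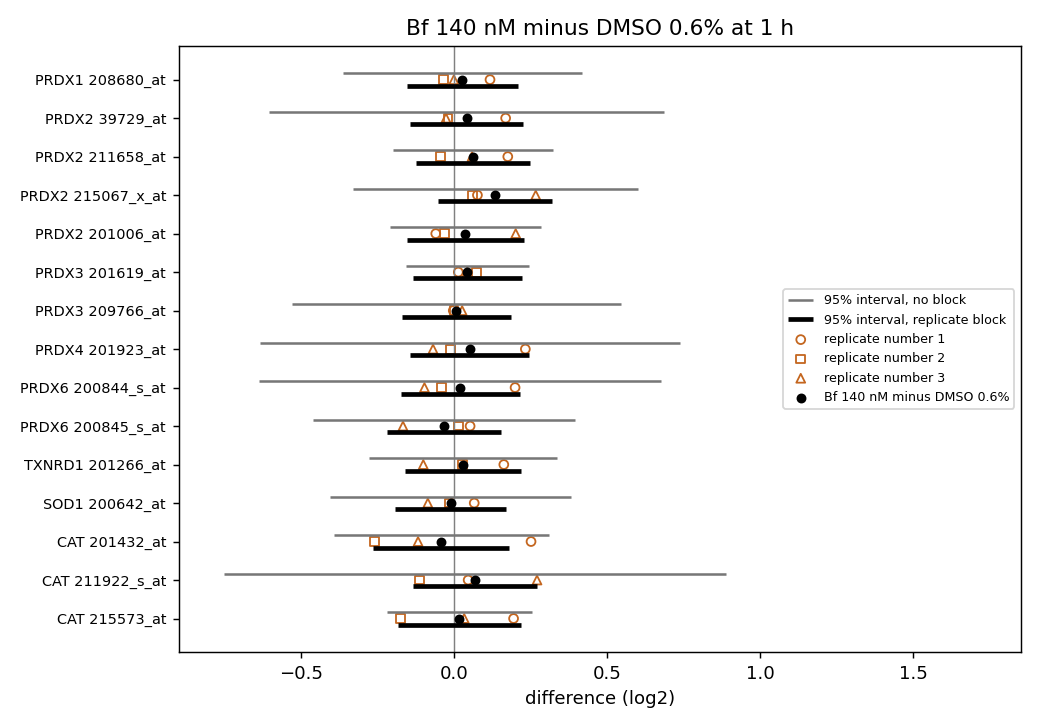
Bf 140 nM minus DMSO 0.6% at 1 h on the log2 scale (x axis) for the 15 probe sets (rows), with black points for the difference, grey lines for the 95% interval without a block, thick black lines for the 95% interval with the replicate number as a block, and open symbols for the difference within each replicate number. All 15 intervals of either kind include 0, and the points lie between -0.04 and 0.13.

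The members varied far more between replicate numbers than between treatments. In a limma F test of the replicate number 9 of 15 members passed (adjusted p under 0.10), or 60%, against 44.6% of all probe sets. Among probe sets above the median mean level, 8 of 12 members passed, against 63.6% of all such probe sets. The members' share thus lay close to that of probe sets of similar brightness. Expressed as replicate 3 minus the mean of replicates 1 and 2, the median size was 0.38 for the members and 0.19 for all probe sets, where the median shift itself was -0.07. This size was not taken over probe sets of similar brightness.

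Of the 15 members, 6 passed with replicate 3 higher (40%, against 17.3% of all probe sets) and 3 with it lower (20%, against 27.2%). These shares of all probe sets are not restricted to similar brightness, so they do not mark a trait of the members. The split of the members was 4 higher and 4 lower under quantile normalization and 8 and 3 with equal array medians. The test there passed 43.6% and 49.5% of all probe sets, whose split by direction was not counted. PRDX4 was higher by 0.71 (95% interval 0.51 to 0.92), PRDX2 39729_at by 0.66 (0.46 to 0.85), PRDX6 by 0.63 (0.42 to 0.83) and 0.41 (0.22 to 0.61), PRDX2 215067_x_at by 0.46 (0.26 to 0.66) and SOD1 by 0.38 (0.18 to 0.57). Replicate 3 was lower in CAT 211922_s_at at -0.82 (-1.04 to -0.61), PRDX3 209766_at at -0.55 (-0.74 to -0.36) and PRDX1 at -0.24 (-0.43 to -0.05). The call for PRDX1 was lost without Bf replicate 1 (limma, adjusted p = 0.123) and that for PRDX6 200845_s_at without DMSO replicate 3 (adjusted p = 0.112). TXNRD1 passed without Bf replicate 1 and again without Bf replicate 3, and CAT 201432_at without DMSO replicate 1. In PRDX1 replicate 2 was also below replicate 1, at -0.33 (-0.55 to -0.11). The 6 that did not pass were PRDX2 211658_at, PRDX2 201006_at, PRDX3 201619_at, TXNRD1 and CAT 201432_at and 215573_at.

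Probe sets of the same gene did not move alike. For PRDX3, 209766_at read -0.55 where 201619_at read 0.09. For CAT the 3 read -0.82, -0.20 and 0.05, and for PRDX2 they ran from -0.07 to 0.66, whereas the 2 for PRDX6 were both higher. These arrays of replicate 3 are those with the raised 3′ minus 5′ differences of actin and GAPDH given above, and the part of that in these values was not tested.

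The direction depended on scaling for some. Under quantile normalization the median of all probe sets moved from -0.07 to 0.02, and under equal array medians to 0.13. The replicate test passed 8 of the 15 members in the first case (43.6% of all probe sets) and 11 in the second (49.5% of all). Of the members, 7 passed under each of the 3 scalings and kept their direction: PRDX2 39729_at and 215067_x_at, PRDX4 and PRDX6 200844_s_at were higher, and PRDX1, PRDX3 209766_at and CAT 211922_s_at lower. How many of all probe sets did so was not counted, so this number describes the members without a background. PRDX1 was barely lower with equal medians (-0.04, against -0.48 under quantile normalization). TXNRD1 flipped from 0.15 to -0.07 under quantile normalization and read 0.34 with equal medians, and PRDX3 201619_at likewise read 0.09, -0.12 and 0.29. Without both arrays of replicate 3, replicates 1 and 2 differed in 3 members, PRDX1, PRDX6 200844_s_at and CAT 211922_s_at, or 20% against 12.5% of all probe sets.

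**Figure D4:**
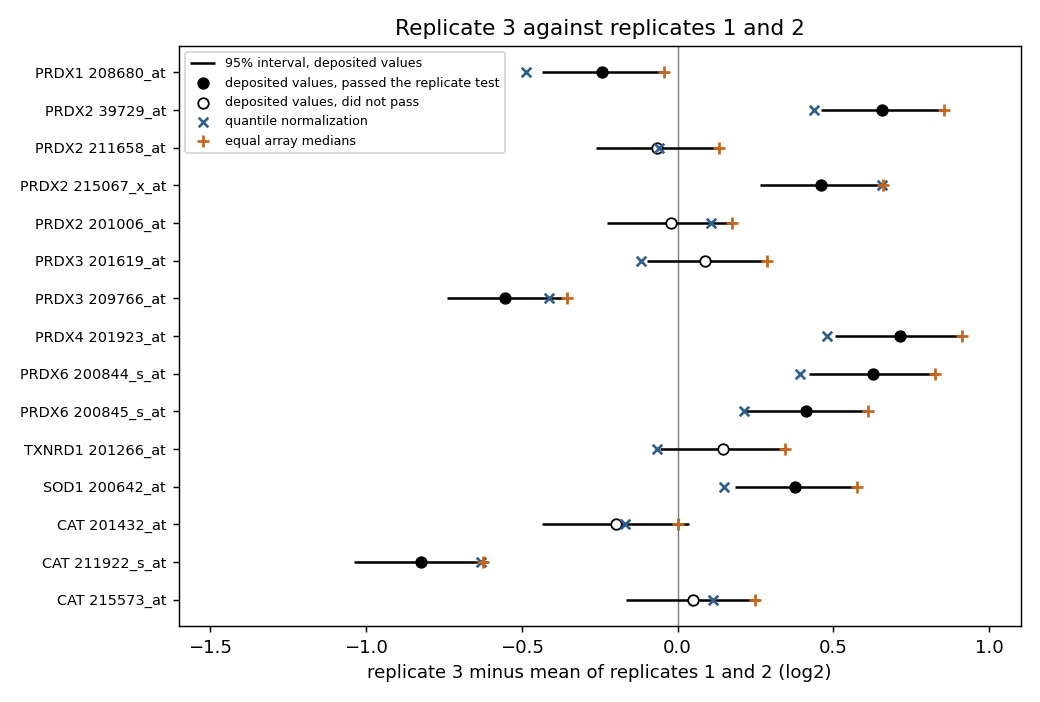
Replicate 3 minus the mean of replicates 1 and 2 on the log2 scale (x axis) for the 15 probe sets (rows), averaged over both treatments. Filled circles passed the replicate test and open circles did not, lines are 95% intervals of the deposited values, and crosses and plus signs give the values after quantile normalization and with equal array medians. CAT 211922_s_at is lowest at -0.82 and PRDX4 highest at 0.71.

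For the 3 members whose level ranged most over the 6 arrays, the most similar profiles are given by root mean square distance of values centred on each gene's mean, over 6 arrays and a pool of 6844 genes. PRDX6 (range 0.85) lay nearest to TMEM97 (distance 0.041), KLHL7 (0.042) and NUP133 (0.045), where the median distance of the pool was 0.33. PRDX4 (range 0.84) lay nearest to GINS2 (0.028), COX5A (0.029) and VBP1 (0.032). PRDX2 (range 0.76) lay nearest to RABEP2 (0.020), GAK (0.022) and TIMM9 (0.032). All of these profiles share the step between replicate 3 and the rest.

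Genes around these enzymes were taken from fixed lists, each gene by its brightest probe set. In the thioredoxin system 12 of 18 listed genes were measured and 0 passed in either direction (limma), with 0 at an unadjusted p under 0.05 and 0 in the blocked fit. TXN, the cytosolic thioredoxin that TXNRD1 recharges, read 11.91, 11.87 and 12.35 on the Bf arrays and 11.65, 11.78 and 12.31 on the DMSO arrays. Bf exceeded DMSO in all 3 replicate numbers, by 0.26, 0.10 and 0.04, while the groups overlapped, and the difference was 0.13 (-0.39 to 0.65). A second TXN probe set, 216609_at, gave 0.0046 (-0.85 to 0.86). TXN2, the mitochondrial thioredoxin, gave 0.07 and -0.01 on its 2 probe sets, TXNRD2, the mitochondrial reductase, -0.0028 and -0.09, and TXNIP, an inhibitor of thioredoxin, 0.03, -0.03 and 0.09. SRXN1, sulfiredoxin, which repairs over-oxidised peroxiredoxins, had no value. In the replicate test 11 of the 12 genes passed, against 44.2% of all genes by their brightest probe set. The median percentile of the 12 was 87.7, and they were not set against genes of similar brightness. In that test the probe sets of TXN2 differed in direction (0.64 and -0.60 for replicate 3).

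Among other enzymes that handle superoxide and peroxide, 12 of 13 listed genes were measured and 0 passed, with differences from -0.09 (GPX3, the plasma glutathione peroxidase) to 0.09 (CCS, the copper chaperone of SOD1). GPX7, a peroxidase of the endoplasmic reticulum, gave 0.08 (-0.17 to 0.33) and SOD3, the extracellular dismutase, 0.08 (-0.24 to 0.41). For NADPH supply 13 of 14 were measured and 0 passed, from -0.11 (ME2, the mitochondrial malic enzyme) to 0.06 (PGD, an enzyme of the pentose phosphate pathway). Of 28 enzymes that produce superoxide or peroxide, 26 were measured and 0 passed. Their differences ran from -0.09 (DUOX1) to 0.17 (DDO, D-aspartate oxidase of peroxisomes). The DDO interval was -0.22 to 0.56, and that probe set lay at percentile 35.2 in the DMSO cultures. A second DDO probe set, 222134_at, gave 0.0057. Of 12 genes for import into peroxisomes, where CAT works, 9 were measured and 0 passed. These ran from -0.07 (PEX7) to 0.13 (PEX19, a chaperone of peroxisomal membrane proteins). A second PEX19 probe set, 201706_s_at, gave -0.07.

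Regulators of these enzymes did not pass either, 0 of 18 measured among 20 listed. Their differences ran from -0.10 (SIRT1) to 0.12 (RELA). NFE2L2 read 10.79, 9.83 and 10.52 (Bf) and 10.28, 10.02 and 10.56 (DMSO). The sign of its difference changed between replicate numbers, from 0.51 in replicate 1 to -0.19 and -0.04 in replicates 2 and 3, and the difference was 0.09 (-0.56 to 0.75). KEAP1, its repressor, gave -0.05 (-0.38 to 0.29), BACH1, a repressor at antioxidant response elements, 0.11 (-0.19 to 0.42) and SIRT1, a deacetylase, -0.10 (-0.37 to 0.18). The list medians lay between 0.0035 (NADPH supply) and 0.04 (peroxisome import), against 0.01 for all genes. In each of these lists the count at an unadjusted p under 0.05 and in the blocked fit was also 0.

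**Figure D5:**
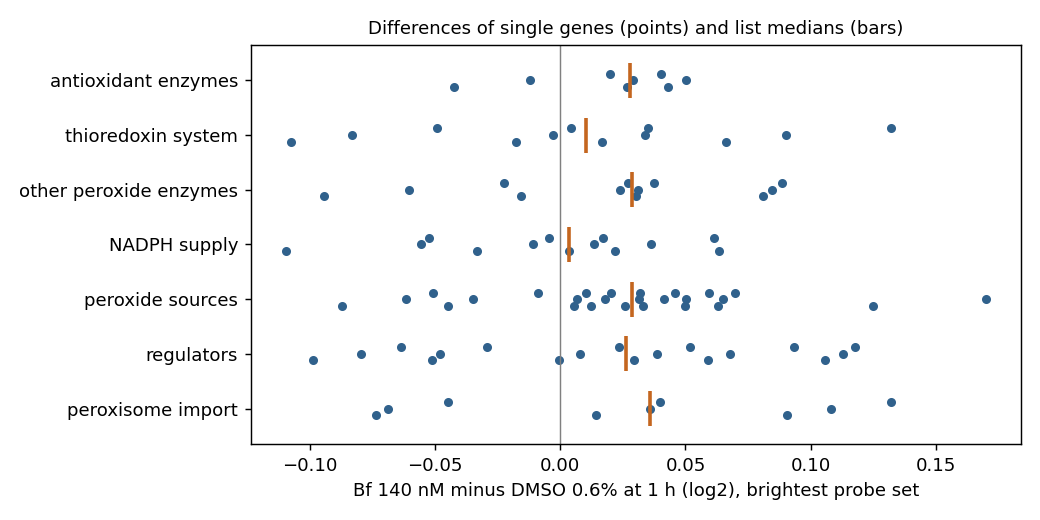
Bf 140 nM minus DMSO 0.6% at 1 h on the log2 scale (x axis) for the brightest probe set of each measured gene (points) in 7 lists (rows), with an orange bar at each list's median. Points are offset vertically for legibility only, and all lie between -0.11 (ME2) and 0.17 (DDO).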

How the data were processed

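The authors deposited 1 table of 6 arrays, whose log2 values come from variance-stabilizing normalization (justvsn) in R 2.5.0, per their methods. The sources used here do not say how probes were summarised or which log base applies. Base 2 was read from what justvsn returns and from the spread of values. All probe sets but platform controls were fitted with limma 3.58.1 (lmFit, eBayes; R 4.3.3) on these values, unpaired, with Benjamini-Hochberg adjustment and a threshold of 0.10, all p-values two-sided. The study's methods used a permutation-based tool for calls. Here limma was used in its place, since it gives an interval for each probe set.

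Groups and replicate numbers came from the sample titles. Same-numbered arrays deviated together from their group means (correlations 0.72, 0.78 and 0.88), so the numbers were taken to pair the arrays; the sample descriptions carry a further number that also matches across groups, though the labels do not say what it marks. The replicate block and the replicate F test use this pairing. The spread over replicates limits precision, and each interval is a 95% interval of the fit.

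Symbols came from the platform annotation: 19064 probe sets had 1 symbol, 1043 several and 2108 none. Members and gene lists were chosen with earlier results of these data known. Named genes were all member probe sets, up to 3 genes of the smallest p per list, the ends of each list's range, fixed thioredoxin and NRF2 genes, and the 3 nearest profiles of the 3 widest-ranging members. Fits were tested on simulated data with noise drawn independently for each array. That noise held no shared deviation of same-numbered arrays, unlike the real arrays.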

Additional observations from a re-analysis of the deposited data

How the results depend on the processing

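None of the 15 member probe sets came past the threshold under any alternative run, and the replicate block changed no call. Signs of these uncalled differences changed often. Under quantile normalization the difference became -0.0235 for PRDX3 209766_at and -0.00873 for CAT 215573_at, and with equal array medians -0.0120 and -0.00243. With array weights PRDX3 209766_at was -0.0442, PRDX6 200845_s_at 0.0745, TXNRD1 -0.00349, SOD1 0.0246, CAT 211922_s_at -0.0554 and CAT 215573_at -0.0548. Without both arrays of replicate 3, with or without the replicate block (the former chosen after seeing the data), PRDX2 201006_at was -0.0455, PRDX3 209766_at -0.00186, PRDX6 200845_s_at 0.0334, SOD1 0.0250 and CAT 211922_s_at -0.0339. On leaving out single arrays the difference ranged for PRDX1 from -0.12 to 0.13, PRDX2 39729_at from -0.16 to 0.28, PRDX2 211658_at from -0.0266 to 0.13, PRDX2 215067_x_at from -0.0532 to 0.25, PRDX2 201006_at from -0.0118 to 0.10, PRDX3 201619_at from 0.00895 to 0.0729, PRDX3 209766_at from -0.18 to 0.19. It ranged for PRDX4 from -0.16 to 0.32, PRDX6 200844_s_at from -0.16 to 0.26, PRDX6 200845_s_at from -0.14 to 0.14, TXNRD1 from -0.0861 to 0.11, SOD1 from -0.12 to 0.13, CAT 201432_at from -0.19 to 0.0426, CAT 211922_s_at from -0.26 to 0.29 and CAT 215573_at from -0.0281 to 0.0805. The count of members with 1 direction in all pairs was 5 under quantile normalization (4 positive, 1 negative) and 1 with equal array medians, against 2. The median basal percentile ranged from 93.6 to 94.2 on leaving out single arrays. Without both arrays of replicate 3 the replicate test passed 3 members, against 9. The cause was not tested. Read as natural logs, the median difference would be 0.04 log2. With 3 arrays a group, the values of a single probe set leave any difference inside its interval possible. The intervals are not limits of detection. A true difference larger than the distance to an interval's end could still have failed the adjusted threshold.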
